A study of Rattus norvegicus with 82 samples.

Results

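The ribosome of the cytosol is built from a small and a large subunit, each a set of ribosomal RNAs clothed with proteins whose genes carry names in Rps (small) and Rpl (large). The cell makes these proteins in matched amounts, and their messenger RNAs are among the most abundant in any tissue, brain included. Most of these messengers open with a cytosine followed by a run of pyrimidines, called a 5′ terminal oligopyrimidine (TOP) motif, through which the growth kinase mTOR adjusts how much of each messenger is translated; the amount of the messenger itself can stay the same while its translation changes. Several of these genes (Rplp0, Rpl13a, Rpl19, Rps16, Rps29) serve as reference genes in PCR work, where a steady level is assumed.

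Cytosolic ribosomal protein genes were taken here as every probe set whose annotated symbol is Rpl or Rps followed by a digit, Rplp or Rpsa, with the Rps6k kinases left out and the probe set of highest mean kept for each gene. This gave 50 genes, read by 57 probe sets, of 14217 genes named by 1 symbol and 31042 probe sets tested. There were 34 genes of the large and 16 of the small subunit. Of the 50, 42 encode core proteins of the ribosome, 6 are related copies with genes of their own (Rpl26l1, Rpl39l1, Rpl3l, Rpl7l1, Rps27l, Rps4y2) and 2 are pseudogenes (Rpl37-ps2, Rps4x-ps1). A further 36 probe sets pair such a symbol with another one and were not members. Ribosomal protein genes have many near-identical processed copies in the genome, so a probe set can read more than its named gene.

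The samples were rat brain, 82 arrays of total RNA with 1 signal per probe set, from frontal cortex, septum, amygdala, hypothalamus, hippocampus, dorsal raphe and locus coeruleus. Rats were labelled Sham, ADX or pADX and AM or PM. ADX commonly abbreviates adrenalectomy, surgery that takes out the adrenals, the source of corticosterone; the sources used here do not give what the p of pADX stands for, the hours behind AM and PM, or the strain, sex and age of the rats. A group was set for 80 arrays, which made 41 sets of 1 region, 1 treatment and 1 time with 2 arrays in nearly all. Frontal cortex had 10 arrays, with 1 each in Sham AM and ADX AM. Hippocampus also had 10, with its 2 pADX arrays both labelled PM. For septum, dorsal raphe and locus coeruleus part of the label text, including the opening of the sample titles, names frontal cortex. For hypothalamus that part names the left hippocampi. The rest of the label text, with a region code in each title, was followed, and marker genes are given below. The labels do not say whether 2 arrays of a group came from different animals or pools, so the p-values measure the spread between these samples, which may be technical.

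Arrays differed in brightness: 45 of 82 shared 1 scale, a trimmed mean signal near 150, among them all of frontal cortex, septum and amygdala, whereas all of hypothalamus and hippocampus lay off it. Values were therefore quantile normalised over the 82 arrays and put on a log2 scale with signals under 16 set to 16, so 4 is the lowest level. The ratio of 3′ to 5′ beta-actin signal, a sign of RNA or labelling quality, had a median of 2.48 in hippocampus and 4.23 in dorsal raphe, the extremes of the 7 regions. Markers went with most labels: Cux2 and Tbr1 were highest in frontal cortex, Prox1 in hippocampus, Oxt and Hcrt in hypothalamus, Nr2f2 in amygdala, Slc6a4 in dorsal raphe and Dbh in locus coeruleus. The locus coeruleus arrays also held the serotonin transporter Slc6a4 at a mean of 9.61, near the 10.66 of dorsal raphe, and Th, needed to make noradrenaline and dopamine, was at 8.74 there and 8.77 in hypothalamus. The hypothalamus markers Avp, Pmch and Oxt were at 7.40, 6.85 and 6.14 in amygdala, against 11.17, 12.19 and 10.95 in hypothalamus. In frontal cortex, septum and hippocampus these markers were at 4.91 or below. Of 5 septum markers measured, Zic1 was highest in septum and the other 4 peaked elsewhere (Chat in locus coeruleus, Prlr and Zic2 in hypothalamus, Trpc6 in frontal cortex), and the cortical and hippocampal gene Neurod6 was at 8.62 there. The 2 arrays with no group were not used in comparisons.

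In these arrays 38 of the 50 genes had a mean level of 10 or more, above 97.7% of the probe sets tested; this cut was set after their values were seen. They comprised 26 genes of the large and 12 of the small subunit, all of them core proteins. The other 12 were dim: the 6 related copies, the 2 pseudogenes, and 4 core genes whose probe sets barely responded or stayed low, Rpl28 (mean 4.25), Rpl30 (4.02), Rps13 (4.09) and Rpl39 (6.72). Rps4x-ps1 was at the floor in all 80 arrays, Rpl3l, a copy known from skeletal and heart muscle, in 77 and Rpl30 in 70. In all, 43 of the 50 had no array at the floor. Levels of different probe sets are not comparable with each other, so a dim probe set does not show that its messenger is scarce.

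Promoter sequences were examined because the TOP run is the feature these genes are best known to share. RefSeq (GRCr8 assembly) gave a window from 250 bases before to 50 after the annotated start for 43 of the 50 genes. A run that opens with C within 5 bases of the annotated start, on the sense strand, and continues for at least 4 more bases that are each C or T was present in 22 of 43 (51.2%), against 15.6% of 27457 promoters of the same length. The sequences below show 30 bases centred on the annotated start, between the 15th and the 16th base, for genes named in the results. Capitals mark the run.
Rpl34: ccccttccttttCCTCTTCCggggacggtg
Rpl22: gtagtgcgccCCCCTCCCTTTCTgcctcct
Rpl12: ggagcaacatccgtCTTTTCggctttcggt
Rps15: cgctgacaccgCTTCCTTTTCCCagcagcc
Rps28: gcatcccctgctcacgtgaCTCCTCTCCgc
Rplp0: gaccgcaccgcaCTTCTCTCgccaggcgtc
Rpl19: cgcgaccagcaagCTCTTTCCTTTCgctgc
Rpl24: gaatttagggaggagattctctaccctata
Rps16: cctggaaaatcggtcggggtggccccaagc
In order, these lie at chr2:221962269-221962298 (minus strand), chr5:168117946-168117975 (plus), chr3:36661925-36661954 (plus), chr7:10068101-10068130 (minus), chr7:15311319-15311348 (minus), chr12:46718376-46718405 (minus), chr10:83519049-83519078 (plus), chr11:58128391-58128420 (minus) and chr1:92770643-92770672 (plus). The run of Rpl19 is 12 bases long and that of Rpl22 is 13. Rpl24 and Rps16 are shown as genes with no such run at the annotated start, which says only that these letters are not in this window. The palindrome CTCGCGAG, which reads the same on both strands and can share its CTC with a pyrimidine run, occurred in 5 of the 43 windows (Rpl4, Rpl26, Rpl27a, Rps6 and Rps28) or 11.6%, against 0.827% of all promoters. The TATA sequence TATAAA, searched on both strands, occurred in 6 of 43 or 14.0%, against 14.3% of all.

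The question posed by the treatment groups is what removal of the adrenal glands does to these genes. For each treatment, time and replicate number a mean was taken over septum, amygdala, hypothalamus, dorsal raphe and locus coeruleus, the 5 regions that have 12 arrays each, giving 12 values per gene, 4 in each treatment and 6 at each time. Between ADX and Sham, 0 of the 50 genes passed limma's test at an adjusted p of 0.05, where 0.132% of all probe sets did; at an unadjusted p under 0.05 there were 3 of 50 (6%), against 9.02% of all probe sets. The median log2 difference was 0.016 over the 50 genes and 0.00 over all probe sets. The 95% interval of each of the 38 bright genes lay within 0.2 of 0 in both directions, from a lowest bound of -0.13 (Rpl21) to a highest of 0.20 (Rpl22). A difference of more than 1.15-fold in either direction was thus outside the interval of every bright gene.

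Rpl34, a core protein of the large subunit, had the smallest p. Its 4 Sham values were 11.26, 11.26, 11.30 and 11.29 and its 4 ADX values 11.30, 11.29, 11.35 and 11.38. The highest values were the 2 of ADX PM, and the other 2 ADX values lay near the top of the Sham range. The difference was 0.057 (SE 0.013, n = 4 each; adjusted p = 0.201, limma), which did not pass. Rpl22, a large-subunit protein that also binds viral RNA, lay at 10.06, 10.09, 10.20 and 10.13 in Sham and at 10.28, 10.14, 10.32 and 10.24 in ADX. The difference was 0.12 (SE 0.034; adjusted p = 0.315), and the groups overlapped. Rps28 differed by 0.066 (SE 0.028; adjusted p = 0.542). For the reference genes the differences were 0.021 for Rplp0, 0.021 for Rpl13a, 0.037 for Rpl19, 0.077 for Rps16 and 0.039 for Rps29, and none passed. Among the related copies Rpl26l1 differed by 0.18 (SE 0.094), Rps27l by 0.072 (SE 0.12), Rps4y2 by -0.087 (SE 0.092) and Rpl7l1 by -0.0033 (SE 0.032), none past the test.

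Between pADX and Sham 0 of 50 passed, where 0.00644% of all probe sets did, with 4 of 50 (8%) at an unadjusted p under 0.05 against 7.70% of all. The median difference was 0.0024. Rps16, a small-subunit protein near the decoding site, had the smallest p. Its pADX values were 11.89, 11.82, 11.65 and 11.77, of which 3 were above every Sham value, the highest of which was 11.69. The difference was 0.19 (SE 0.045; adjusted p = 0.398), and its interval reached 0.29, the only bright gene whose interval went beyond 0.2. Rps4y2, a copy of the gene for the small-subunit protein S4, read 4.99, 4.90, 5.11 and 4.92 in Sham and 4.42, 4.75, 4.60 and 4.82 in pADX, close to the floor. Its groups did not overlap, and the difference was -0.33 (SE 0.092; adjusted p = 0.465). Rps15a was the other gene whose groups did not overlap, at 0.069 (SE 0.025; adjusted p = 0.575). These 2 genes of 50 compare with 3.49% of all probe sets whose pADX and Sham values did not overlap. For the other reference genes the differences were 0.020 for Rplp0, 0.074 for Rpl13a, -0.0078 for Rpl19 and 0.030 for Rps29. For the related copies they were 0.17 (SE 0.12) for Rps27l, 0.098 for Rpl26l1 and -0.015 for Rpl7l1, and none of these passed.

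ADX and pADX did not differ in any of the 50 genes by the test (0 passed, where 0.0483% of all probe sets did), although 10 of 50 (20%) had an unadjusted p under 0.05, against 8.02% of all. The median difference was 0.00047 and the signs were mixed, with 21 of the 38 bright genes higher in ADX and 17 lower. Rps15 had the smallest p: its ADX values were 10.98, 10.97, 10.99 and 10.94 and its pADX values 11.12, 11.06, 10.99 and 11.04. It differed by -0.084 (SE 0.025; adjusted p = 0.414). Rpl22 differed by 0.10 (SE 0.034; adjusted p = 0.485) and Rps9 by 0.044 (SE 0.016; adjusted p = 0.512). In 5 genes (Rps4y2, Rpl19, Rps6, Rpl39, Rps24) the groups did not overlap, against 3.99% of all probe sets. Of the reference genes Rps16 differed by -0.11 (SE 0.045), Rpl13a by -0.053, Rpl19 by 0.045 (SE 0.017), Rps29 by 0.0091 and Rplp0 by 0.00074. Of the related copies Rps4y2 differed by 0.25 (SE 0.092), Rps27l by -0.10, Rpl26l1 by 0.077 and Rpl7l1 by 0.012, and none of these passed. Rpl3l, at the floor in nearly all arrays, was within 0.0022 of 0 in each comparison of treatment and time across regions. The 3 treatment comparisons share groups and are not independent.

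**Figure D1:**
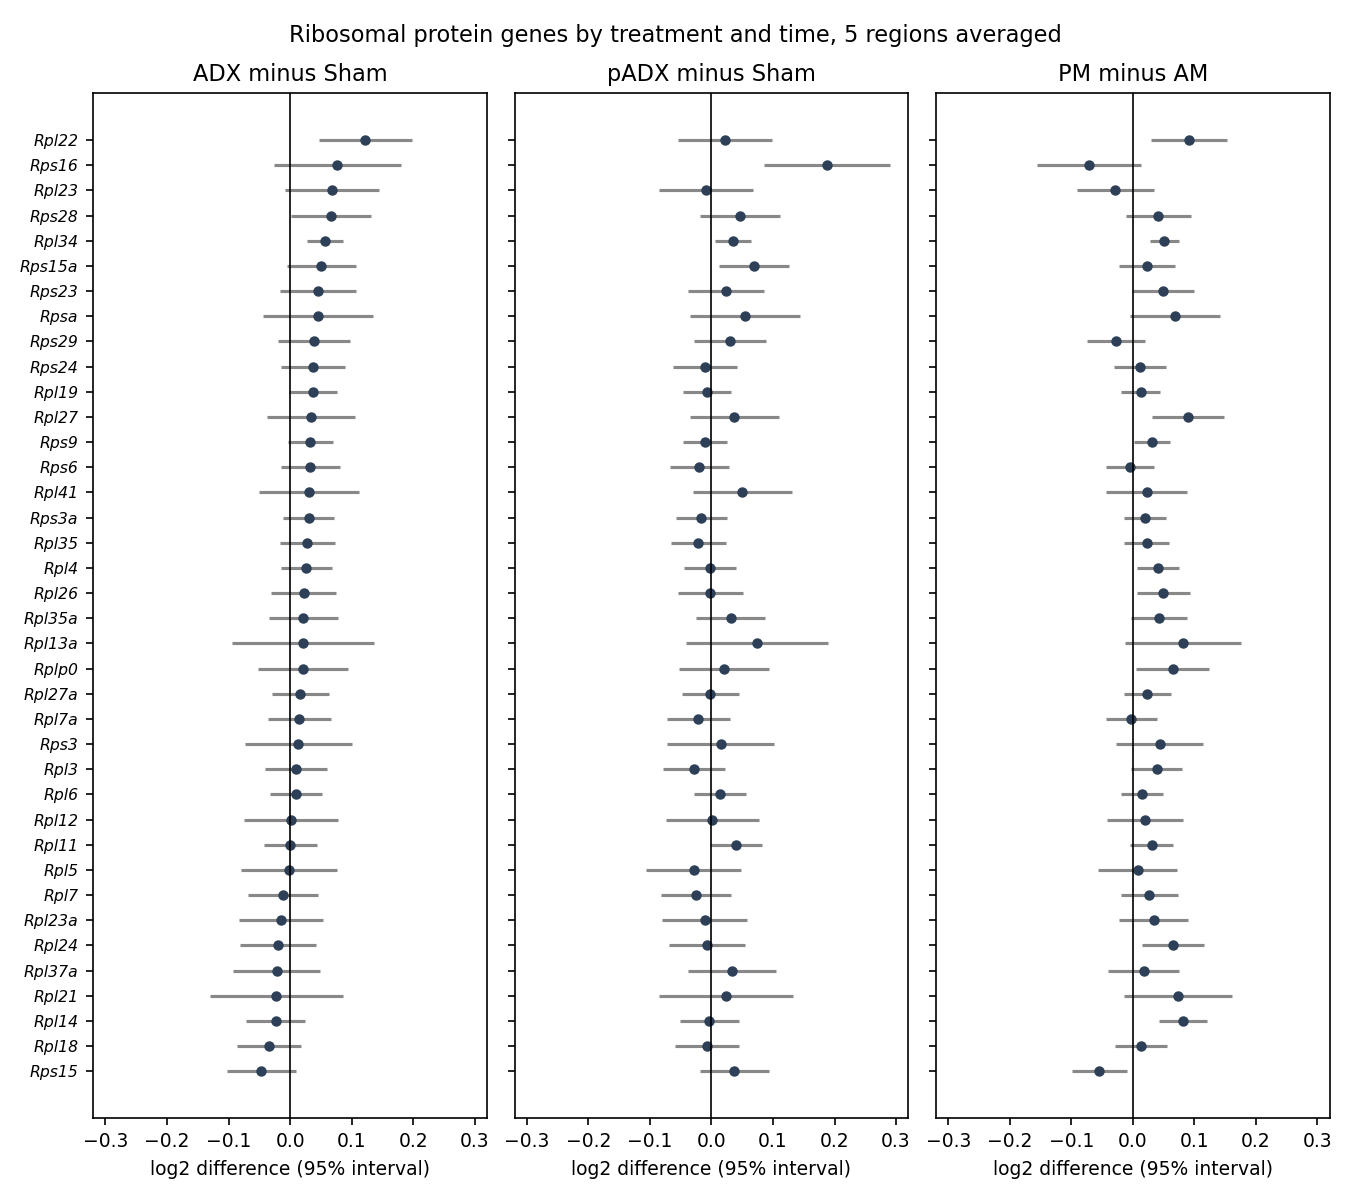
Log2 difference (horizontal axis) of each of the 38 bright ribosomal protein genes for ADX minus Sham, pADX minus Sham and PM minus AM, from limma on 12 means of 5 regions; points are differences and bars 95% intervals. Genes are ordered by the first panel, and Rps16 in the pADX panel has the bar that reaches farthest, to 0.29; 0 genes passed the adjusted test in any panel.

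These values rest on normalisation, because the ADX arrays of the 5 regions were dimmer than the Sham arrays as deposited: the mean log2 of the arrays' trimmed means was 6.76 to 6.84 over the 4 ADX combinations and 7.03 to 7.12 over the 4 of Sham. On the deposited values, without normalisation, 42 of the 50 ribosomal protein genes were called lower in ADX than in Sham and 0 higher, but so were 44.0% of all probe sets, with 0.142% higher. The median of the 38 bright genes was then -0.29, and that of the 806 other probe sets with a mean of 10 or more was -0.29 as well. Scaling every array to the same trimmed mean, in place of quantile normalisation, gave medians of -0.0061 and -0.0074. Quantile normalisation assumes equal distributions, so a change shared by the bulk of all genes cannot be told apart from array brightness here.

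**Figure D2:**
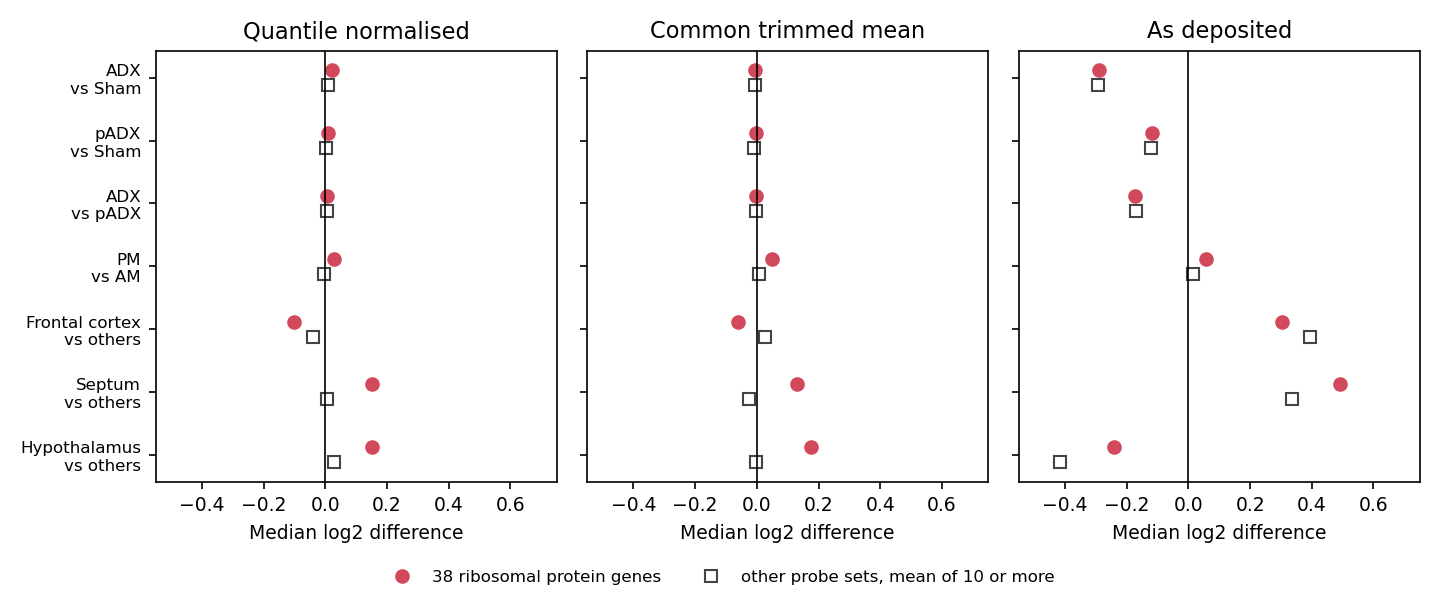
Median log2 difference (horizontal axis) of the 38 bright ribosomal protein genes (filled circles) and of the 806 other probe sets with a mean of 10 or more (open squares), under 3 scalings of the arrays. With deposited values both medians are -0.29 for ADX against Sham; in septum and hypothalamus the ribosomal protein genes lie to the right of the other bright probe sets under all 3 scalings, and in frontal cortex to the left.

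PM and AM were compared across the 3 treatments. No gene of the 50 passed (0.00966% of all probe sets did), and 11 of 50 (22%) had an unadjusted p under 0.05 against 10.4% of all. The median difference was 0.025, with 32 of the 38 bright genes higher at PM and 6 lower; as all genes come from the same 12 values they are not independent counts. This lean to PM was not seen in every region, as the values by region below show. The median of the 806 other bright probe sets was -0.0042. The interval of every bright gene lay within 0.2 of 0. Rpl34 ranged from 11.26 to 11.30 at AM (median 11.28, n = 6) and from 11.29 to 11.38 at PM (median 11.33). It differed by 0.051 (SE 0.011; adjusted p = 0.181) with a small overlap. Rpl14, a large-subunit protein, was the one gene whose AM and PM values did not overlap. It ranged from 10.39 to 10.48 at AM (median 10.44) and from 10.49 to 10.55 at PM (median 10.52). The difference was 0.081 (SE 0.017; adjusted p = 0.187), and 0.66% of all probe sets had no overlap. Rpl28 differed by -0.24 (SE 0.057; adjusted p = 0.218) at levels from 4.02 to 4.45, with 32 of 80 arrays at the floor. Rplp0 differed by 0.065 (SE 0.026), Rpl13a by 0.081 (SE 0.042), Rpl19 by 0.013 (SE 0.014), Rps16 by -0.072 (SE 0.037) and Rps29 by -0.027 (SE 0.021), with adjusted p of 0.442, 0.542, 0.793, 0.547 and 0.717 in limma. Rpl26l1 differed by 0.082 (SE 0.076), Rpl7l1 by 0.034, Rps4y2 by 0.039 and Rps27l by 0.027, none past the test.

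**Figure D3:**
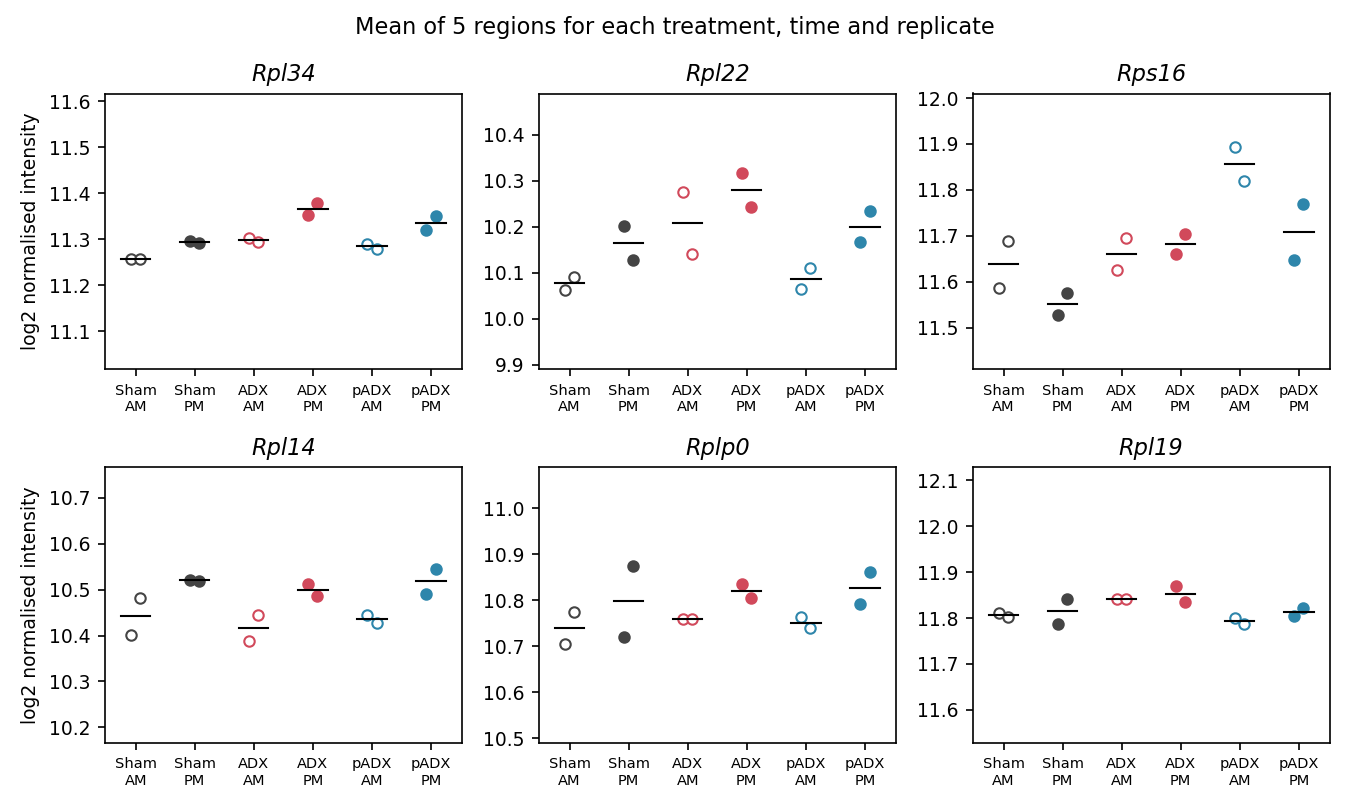
Log2 normalised intensity (vertical axis, 0.6 units high in every panel) of 6 ribosomal protein genes in the 6 groups of treatment and time; each point is the mean of 5 regions for 1 replicate number, open for AM and filled for PM, and each line is the mean of 2 points. Rpl14 lies higher at PM than at AM in all 3 treatments, whereas Rpl19 stays between 11.79 and 11.87 throughout.

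The same contrast within each treatment, with 2 values at each time, also called 0 of 50 genes. The share of all probe sets called was 0.0773% within Sham, 0.029% within ADX and 0.00966% within pADX. At an unadjusted p under 0.05 there were 2 of 50 (4%), 8 of 50 (16%) and 6 of 50 (12%). The shares of all probe sets were 9.30%, 10.5% and 6.29%. Within ADX Rpl24 had the smallest p at 0.12 (AM 11.01 and 11.00, PM 11.12 and 11.12; adjusted p = 0.275). The test of the difference between treatments in this contrast called 0 of 50 as well, at 0.0354% of all for ADX against Sham and 0.0451% for pADX against Sham. At an unadjusted p under 0.05 there were 0 of 50 in either, against 6.76% and 6.68% of all probe sets. The lowest adjusted p of the 50 genes was 0.829 and 0.761.

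Each region was then tested alone, which called 0 of the 50 genes for ADX against Sham, pADX against Sham or PM against AM in any of the 7 regions. Calls were rare for all genes in these tests, from 0 to 7 of the 31042 probe sets in each. Dorsal raphe showed the most members at an unadjusted p under 0.05 for PM against AM, 14 of 50 (28%) against 11.9% of its probe sets, with a median of 0.077. Rplp0, a stalk protein of the large subunit, differed there by 0.30 (SE 0.067; adjusted p = 0.236) and Rpsa, the small-subunit protein that doubles as a laminin receptor, by 0.26 (SE 0.073; adjusted p = 0.286). In septum the same 2 genes were at -0.12 (SE 0.048) and -0.034 (SE 0.047). The test of whether PM minus AM differed among regions gave adjusted p of 0.107 for Rplp0 and 0.0853 for Rpsa, and 0 of 50 passed (0.0741% of all probe sets did). Both passed when Sham PM replicate 1 was left out of every region, at 0.0167 and 0.0426. In frontal cortex 34 of the 38 bright genes were lower in ADX than in Sham, with a median of -0.11, and 8 of 50 genes (16%) had an unadjusted p under 0.05 against 12.3% of its probe sets; that comparison held 3 arrays of each group. In hippocampus 36 of 38 were lower in pADX, with a median of -0.10, from 2 pADX arrays, both labelled PM. There 3 of 50 genes (6%) had an unadjusted p under 0.05, against 4.89% of its probe sets.

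The test of whether treatment differences vary by region called 0 of 50, where 2.07% of all probe sets passed. Rpl3l was nearest at an adjusted p of 0.0511, but 77 of its 80 values are at the floor. Rpl21 followed at 0.0678: its ADX minus Sham difference was 0.19 (SE 0.11) in frontal cortex, 0.12 (SE 0.066) in septum and -0.16 (SE 0.076) in hippocampus. Rpl21 passed, at 0.0427, when dim probe sets were left out, and Rpl3l when pADX PM replicate 1 was left out.

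Regions separated these genes, as they did most probe sets. The region test used 80 arrays and the tests of treatment and time across regions 12 means, so their counts cannot be set side by side. Among the 7 regions 44 of the 50 genes differed by limma's F test with the 12 combinations of treatment, time and replicate as a block, where 65.3% of all probe sets did. All 38 bright genes passed, in common with 98.2% of the 844 probe sets with a mean of 10 or more. The 6 that did not pass were dim: Rpl28, Rpl30, Rpl39l1, Rpl3l, Rps13 and Rps4x-ps1. The differences were small. The range from the lowest to the highest region mean had a median of 0.33 over the 38 bright genes, or 1.26-fold, from 0.14 (Rpl7a) to 0.63 (Rps28). In the 806 other bright probe sets the median range was 0.49, or 1.41-fold.

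Septum and hypothalamus were the high regions and frontal cortex the low one. Against the mean of the other 6 regions, 32 of 50 genes were higher in septum and 2 lower, where 15.4% of all probe sets were higher. In hypothalamus 32 were higher and 1 lower, where 19.4% of all were higher. In frontal cortex 25 were lower and 1 higher, where 21.3% of all were lower. All 38 bright genes had a positive difference in septum (31 passing; median 0.15) and in hypothalamus (32 passing; median 0.15), and 35 of 38 a negative one in frontal cortex (22 passing; median -0.10). The same medians over the 806 other bright probe sets were 0.0050, 0.028 and -0.039. In the other 4 regions calls went both ways: amygdala had 3 higher (15.8% of all probe sets) and 15 lower (17.8%), hippocampus 3 (16.7%) and 12 (17.9%), dorsal raphe 4 (20.6%) and 13 (17.6%), and locus coeruleus 7 (21.8%) and 16 (18.6%). In tissue pieces a change in the mix of cells and a change in RNA per cell cannot be told apart.

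The direction depends on the scaling in hypothalamus and frontal cortex: on deposited values 0 of 50 genes were called higher in hypothalamus, whose arrays were dim, and 0 lower in frontal cortex, whereas 45 were called higher in septum. The shares of all probe sets were 2.97%, 6.73% and 55.2%. In septum the deposited values rose broadly, with a median of 0.26 over all probe sets, 0.33 over the 806 other bright probe sets and 0.49 over the 38 bright genes. On deposited values the median of the 38 bright genes was -0.24 in hypothalamus and 0.30 in frontal cortex, beside -0.42 and 0.39 for the 806 other bright probe sets; the median over all probe sets moved to -0.21 and 0.10. Scaling to a common trimmed mean called 36 of 50 higher in hypothalamus (24.4% of all probe sets), 23 higher in septum (17.6%) and 18 lower in frontal cortex (27.1%). In frontal cortex, septum and amygdala, which share 1 scale as deposited, the deposited values called 34 of 50 higher in septum (20.7% of all probe sets) and 12 of 50, or 24%, lower in frontal cortex, near the 19.3% of all probe sets.

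A median over the 38 bright genes in each array uses the same normalised values, so it cannot bear on the question of scaling. This median was in the same order and shows the spread between arrays. It ranged from 11.22 to 11.47 in frontal cortex (median 11.33, n = 10), from 11.51 to 11.66 in septum (11.57, n = 12) and from 11.54 to 11.63 in hypothalamus (11.60, n = 12). No frontal cortex array reached the lowest septum or hypothalamus array. Amygdala ranged from 11.28 to 11.53, hippocampus from 11.29 to 11.53, dorsal raphe from 11.28 to 11.56 and locus coeruleus from 11.28 to 11.56, and these 4 regions overlapped almost wholly. Hypothalamus arrays were the most alike in this median, with an SD of 0.026 between arrays, against 0.082 in hippocampus and 0.081 in locus coeruleus.

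**Figure D4:**
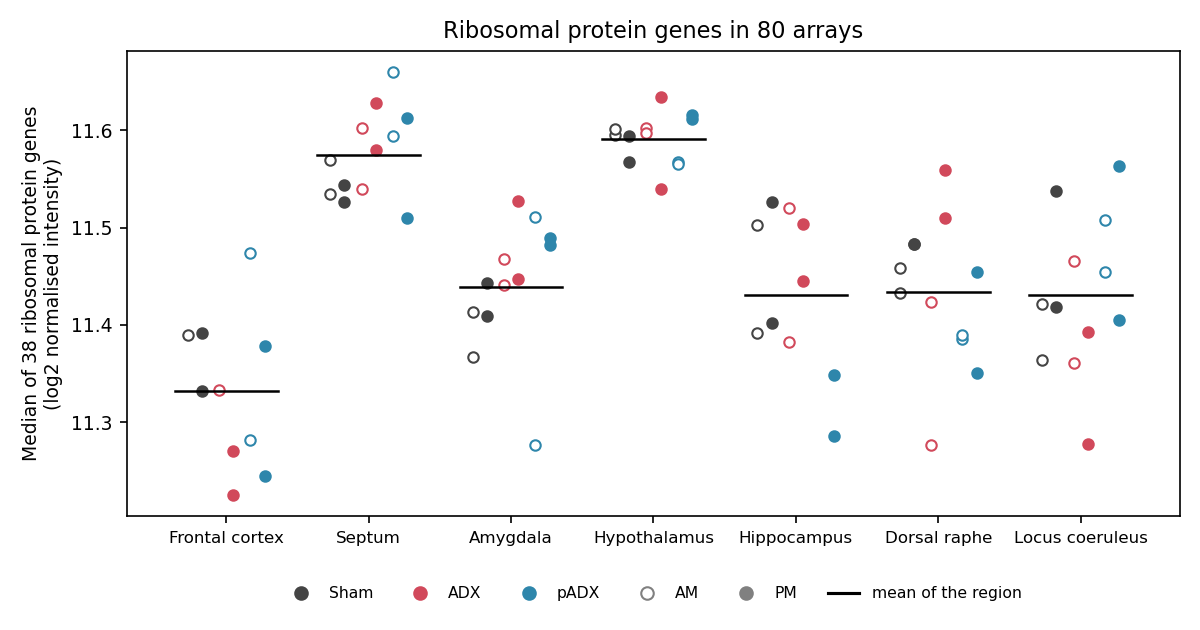
Median log2 normalised intensity of the 38 bright ribosomal protein genes (vertical axis) in each of 80 arrays by region; colours mark Sham, ADX and pADX, open points AM, filled points PM, and lines the region means. All septum and hypothalamus arrays lie at 11.51 or above, and all frontal cortex arrays at 11.47 or below.

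Pair by pair, 37 of the 38 bright genes were lower in frontal cortex than in septum (18.3% of all probe sets) and 34 lower than in hypothalamus (23.2%), with 0 higher in either. Frontal cortex was less apart from the remaining regions. It was lower than amygdala in 13 (12.7%) with 0 higher, and lower than hippocampus in 11 (14.8%) with 1 higher (15.1%). Against dorsal raphe 16 were lower (23.5%) and 5 higher (20.9%), and against locus coeruleus 15 were lower (23.2%) and 3 higher (20.5%). Septum exceeded amygdala in 26 of 38 (13.2%), and hypothalamus exceeded amygdala in 26 (20.9%). Septum also exceeded dorsal raphe in 24 (17.3%), with 0 lower (19.9%). Septum and hypothalamus themselves differed in 9 of 38, 3 higher in septum (14.7%) and 6 higher in hypothalamus (17.4%), with a median of -0.013. Dorsal raphe and locus coeruleus differed in 2 of 38, both higher in dorsal raphe (3.13%). Amygdala, hippocampus, dorsal raphe and locus coeruleus had calls in both directions among each other in every pair but that last one.

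The highest region mean was hypothalamus for 20 of the 38 bright genes, septum for 17 and locus coeruleus for 1, Rpl13a. The lowest was frontal cortex for 13, amygdala for 8, locus coeruleus for 8, dorsal raphe for 6 and hippocampus for 3. Among the genes called higher in septum the largest differences were Rps27l (0.33, SE 0.095), Rps15 (0.30, SE 0.043), Rpl7 (0.22, SE 0.022), Rps15a (0.22, SE 0.033), Rpl34 (0.22, SE 0.027), Rpl22 (0.21, SE 0.048), Rpl11 (0.21, SE 0.035), Rpl12 (0.19, SE 0.035), Rps3a (0.18, SE 0.024) and Rpl41 (0.18, SE 0.048). Rps27l is a p53-responsive copy of Rps27, and Rpl11 is known for binding Mdm2 when ribosome assembly is disturbed. Among those higher in hypothalamus they were Rpl14 (0.31, SE 0.035), Rps6 (0.31, SE 0.031), Rpl12 (0.30, SE 0.035), Rps28 (0.30, SE 0.059), Rpsa (0.30, SE 0.036), Rpl18 (0.29, SE 0.040), Rpl41 (0.29, SE 0.048), Rpl22 (0.28, SE 0.048), Rpl24 (0.25, SE 0.033) and Rplp0 (0.23, SE 0.037). Rps6 is the protein whose phosphorylation by S6 kinases is read as mTOR activity; its messenger level says nothing of that. Among those lower in frontal cortex they were Rps28 (-0.44, SE 0.065), Rpl39 (-0.38, SE 0.11), Rpl13a (-0.35, SE 0.053), Rpl21 (-0.34, SE 0.043), Rps27l (-0.34, SE 0.10), Rps4y2 (-0.31, SE 0.13), Rpl24 (-0.29, SE 0.036), Rpl27 (-0.27, SE 0.050), Rps24 (-0.25, SE 0.028) and Rpsa (-0.24, SE 0.040). Of these Rps4y2 was close to the threshold (adjusted p = 0.0454 in limma) and did not pass without Sham PM replicate 1, among others, or with a floor of 32. Rpl39 did not pass with frontal cortex, septum and amygdala alone (-0.26; adjusted p = 0.148), and Rpl41 in septum did not pass with arrays scaled to a common trimmed mean (0.14; adjusted p = 0.0636). On deposited values Rps28 in frontal cortex was at -0.0043. The genes called the other way were all dim. Rps4y2 (-0.41, SE 0.12) and Rpl37-ps2 (-0.36, SE 0.093) were lower in septum, Rpl37-ps2 (-0.35, SE 0.093) was lower in hypothalamus, and Rpl28 (0.27, SE 0.10) was higher in frontal cortex. With a floor of 32 Rpl28 was at -0.0031 there and no longer passed, nor did it (0.27) when pADX PM replicate 1 was left out, nor (0.23) without replicate 2 of Sham AM, nor (0.21) without replicate 1 of Sham PM. Rpl37-ps2 did not pass in hypothalamus with arrays scaled to a common trimmed mean (-0.23), or in septum against frontal cortex and amygdala alone (-0.0031).

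Rps28 had the widest range of the bright genes. It ranged from 10.04 to 10.63 in frontal cortex (median 10.36), from 10.50 to 11.22 in septum (10.68), from 10.37 to 11.04 in amygdala (10.68), from 10.78 to 11.35 in hypothalamus (10.94), from 10.32 to 10.78 in hippocampus (10.60), from 10.53 to 11.12 in dorsal raphe (10.82) and from 10.64 to 11.13 in locus coeruleus (10.77). Frontal cortex did not overlap with hypothalamus or locus coeruleus (range of means 0.63, 1.55-fold; adjusted p = 4.27e-09, F test). Rpl41, which encodes one of the shortest proteins known, had means of 11.31 ± 0.05 (SD, n = 12) in hypothalamus and 10.83 ± 0.23 (n = 12) in dorsal raphe. Rpl12, a protein of the stalk base, was at 11.48 ± 0.04 in hypothalamus, 11.38 ± 0.12 in septum, 11.15 ± 0.09 (n = 10) in frontal cortex and 11.04 ± 0.11 in locus coeruleus, where its arrays ranged from 10.73 to 11.17 and stayed below every hypothalamus array, the lowest of which was 11.41.

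Rpl14 was at 10.68 ± 0.09 in hypothalamus and 10.23 ± 0.16 in amygdala, without overlap. Rpl22 was at 10.41 ± 0.11 in hypothalamus and 9.97 ± 0.21 in dorsal raphe. Rpl13a was at 11.39 ± 0.17 in frontal cortex and 11.85 ± 0.12 in locus coeruleus, which touched at 11.70. Rpl22 and Rpl12 were low in both brainstem regions, whereas Rpl13a and Rps28 were not.

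**Figure D5:**
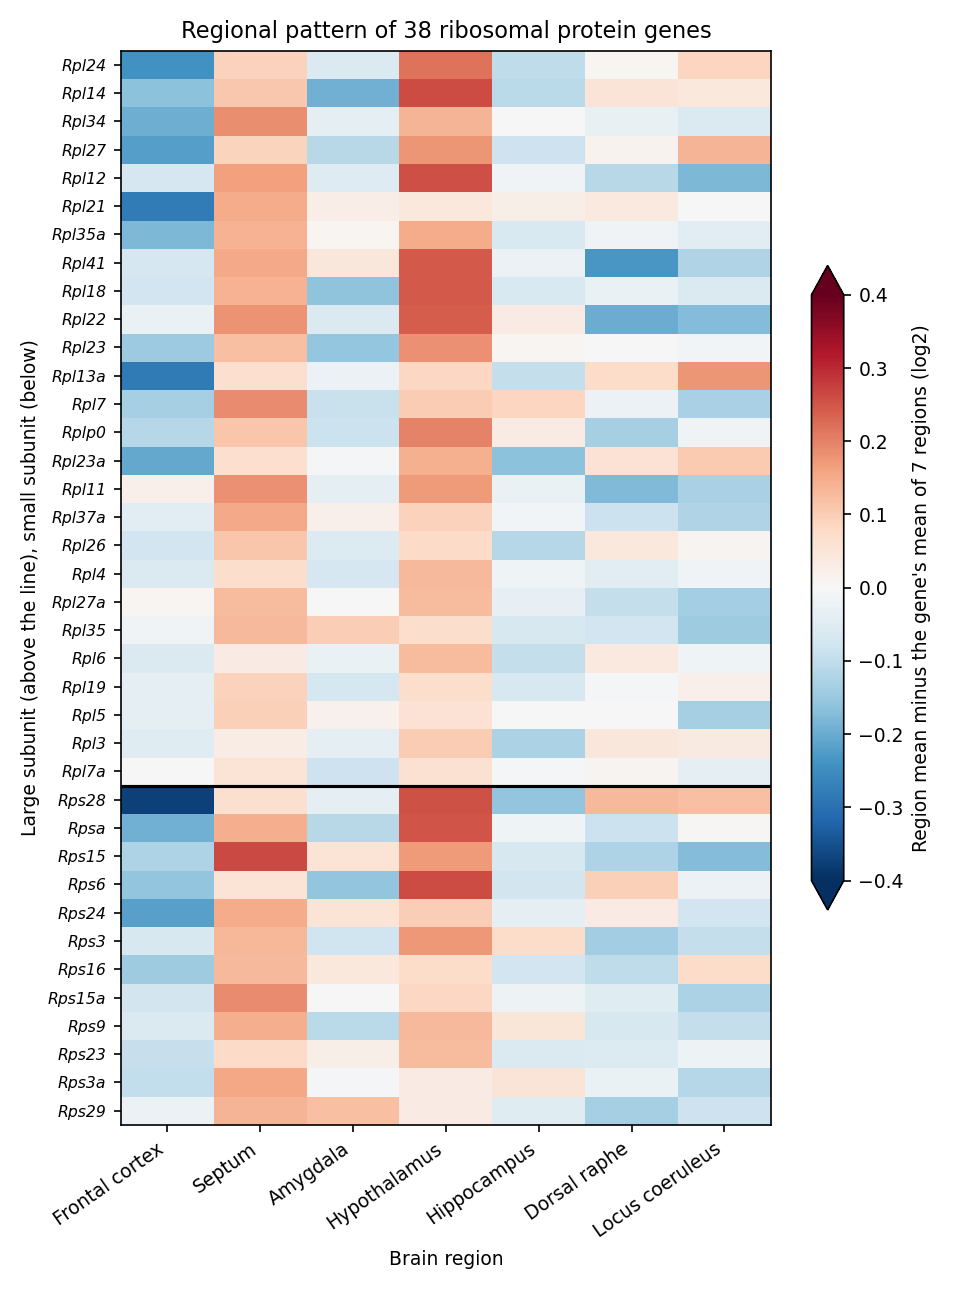
Mean log2 level of each of the 38 bright ribosomal protein genes in each region, minus the gene's mean over the 7 regions (colour scale from -0.4 to 0.4), with genes of the large subunit above the line and of the small subunit below it. Septum and hypothalamus are above the mean for all 38 genes, and frontal cortex is darkest blue for Rps28, whose difference from the other regions was -0.44.

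The steadiest of the genes that passed were Rpl7a (range of region means 0.14, 1.10-fold; adjusted p = 9.04e-04), Rpl19 (0.16, 1.12-fold; adjusted p = 9.42e-05) and Rpl4 (0.20, 1.15-fold; adjusted p = 4.00e-08). Of the reference genes Rpl13a had the widest range, 0.46 or 1.38-fold, followed by Rplp0 at 0.33, Rps16 at 0.27, Rps29 at 0.27 and Rpl19 at 0.16. All 5 passed the F test, as did nearly all probe sets with a mean of 10 or more, so none was level across these regions. Each of the 5 ranges was below the median range of the 806 other bright probe sets, 0.49.

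Several of the related copies and pseudogenes followed other patterns than the bright genes, but Rps27l did not. Rpl37-ps2, an Rpl37 pseudogene that is transcribed, was at 6.82 ± 0.26 (n = 12) in locus coeruleus and 6.53 ± 0.20 (n = 12) in dorsal raphe, and between 5.34 and 5.85 in the means of the other 5 regions. Its range of 1.48, or 2.79-fold, was the widest of the 50 genes (adjusted p = 3.94e-19, F test). Rps4y2 was at 5.49 ± 0.44 in locus coeruleus and 4.35 ± 0.33 in septum, with 10 of 80 arrays at the floor, and its range was 1.13. Like most bright genes, Rps27l was higher in septum (5.82 ± 0.29) and hypothalamus (5.70) than in frontal cortex (5.23). It was at 5.19 ± 0.36 in amygdala. Rpl7l1, a copy linked to ribosome assembly, differed by 0.22 between hippocampus, the highest, and amygdala, the lowest (adjusted p = 0.00151), and Rpl26l1 by 0.43 (adjusted p = 0.0450). Rpl39l1, known from testis, is named here after its values were seen; 50 of its 80 arrays were at the floor.

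The regional counts were set out by the pyrimidine run at the annotated start. Among bright genes with a promoter entry, 17 of 18 with the run and 12 of 16 without it were called higher in septum, with medians of 0.16 and 0.14; the counts in hypothalamus were also 17 of 18 and 12 of 16, with medians of 0.16 and 0.13. In frontal cortex 11 of 18 and 8 of 16 were called lower. No test of these counts was made.

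Other parts of the translation machinery were read for comparison, on the quantile normalised values only. Their regional directions were not read on deposited values, where those of the ribosomal protein genes changed in hypothalamus and frontal cortex. In the 4 comparisons of treatment and time across regions 0 genes passed in each list: 39 of translation initiation, 10 of elongation, 54 of ribosome biogenesis and RNA polymerase I, 73 mitochondrial ribosomal proteins, 19 that control translation of ribosomal protein messengers, such as mTOR and Larp1, and 14 other TOP messengers. Within Sham, PM against AM called 1 of these genes, Rrp8 of the biogenesis list, a ribosomal RNA processing protein, at 0.57 (SE 0.054; adjusted p = 0.0300 in limma). Across regions the F test passed for 36 of 39, 10 of 10, 42 of 54, 70 of 73, 19 of 19 and 14 of 14. Most of all probe sets passed this test too, at the share given above, and nearly all with a mean of 10 or more did.

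The other TOP messengers, a list of elongation factors, RNA-binding proteins and further genes, were called higher in hypothalamus for 12 of 14 (19.4% of all probe sets) and lower for 0, and lower in frontal cortex for 8 (21.3%) and higher for 1. In septum 6 were higher (15.4%) and 1 lower. These counts were read on the quantile normalised values only. Vim, an intermediate filament protein of astrocytes and vessel cells, had the largest difference of the list, 1.47 (SE 0.10) in hypothalamus, and was at 0.35 in septum and -1.02 in amygdala. Eef1b2, an exchange factor of elongation factor 1, was 0.35 (SE 0.027) higher in hypothalamus and -0.29 (SE 0.030) in frontal cortex. Gas5, a noncoding host of small nucleolar RNAs with a TOP start, was at 0.51 (SE 0.057) in hypothalamus, 0.19 (SE 0.057) in septum and -0.73 (SE 0.062) in frontal cortex. Mitochondrial ribosomal proteins, the separate set that serves the mitochondrial genome, went otherwise: 54 of 73 were higher in locus coeruleus (21.8% of all probe sets) and 2 lower (18.6%), with a median of 0.19, whereas in septum 1 was higher and 29 lower (16%), with a median of -0.11. Of the control genes, Larp1, which binds TOP messengers, was -0.31 (SE 0.044) in septum, and Deptor, an inhibitor of mTOR, 0.31 (SE 0.057) in hypothalamus. Among elongation genes Eef1a2, the neuronal form of factor 1A, was -0.32 (SE 0.098) in septum, where Eef1a1, its widely expressed counterpart, was 0.14 (SE 0.024).

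Cell type markers moved with the regions. The summed signal of 8 neuron markers was lowest in hypothalamus (10315 to 11985 over its arrays) and septum (11278 to 13036), the 2 regions where ribosomal protein genes were highest; it was 16703 to 17854 in frontal cortex, the lowest region for these genes, and 17074 to 20750 in dorsal raphe. The 7 astrocyte markers were lowest in frontal cortex (9641 to 11745) and highest in hypothalamus by their median (13750 to 17289), with septum at 12993 to 15036. The 8 oligodendrocyte markers measured of 9 were low in frontal cortex (8648 to 13210) and amygdala (9548 to 14376), 17799 to 21064 in septum, and highest by their median in locus coeruleus (22210 to 25927). All 8 neuron and all 7 astrocyte markers were read in each of these regions, and their part in the regional result was not tested. With the beta-actin ratio as a covariate 31 genes were higher in septum, 29 higher in hypothalamus and 25 lower in frontal cortex, close to the counts without it.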

How the data were processed

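Each of the 82 arrays gave 1 linear intensity per probe set in the deposited table (31099 probe sets); the sources used here do not give what the authors did to make these intensity values, or how arrays were scaled. Without 57 controls, 31042 probe sets were tested. Genes were named from the platform annotation given with the files (20826 probe sets with 1 symbol, 436 with several, 9780 with none).

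Intensities were quantile normalised, floored at 16 and put on a log2 scale in R 4.3.3. Tests used limma 3.58.1 (lmFit, eBayes with trend), adjusted by Benjamini-Hochberg over all 31042 probe sets, threshold 0.05: treatment plus time on the 12 means of 5 regions, 6 group means for PM against AM within a treatment, and regions over 80 arrays with the 12 combinations as a block. The tests were checked on simulated data with independent noise for each probe set. The planted differences were larger than most of those reported for ribosomal protein genes. That check does not cover array scale or smaller differences. Promoters and figures used Python 3.11.15 with pandas 2.3.3 and matplotlib 3.10.9.

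The members and lists were chosen with earlier results of these data known. The rule for named genes took, in each comparison, up to 10 past the threshold in each direction by size, or 3 of the smallest p where fewer than 3 passed; for regions the 12 widest and 3 narrowest ranges; in comparisons of treatment and time across regions also the 5 reference genes and 5 related copies of the lists; and up to 4 genes past the threshold from each pathway list. For single regions it was applied to septum, hypothalamus and frontal cortex, and not every gene it took from the pathway lists is printed. Values cannot be more precise than the number of arrays allows. Same-numbered arrays did not deviate together (15 pairs of groups, correlations -0.072 to 0.056), so treatments and times were not paired by replicate number. The number does tie arrays across regions, in the 12 means and in the block of the region tests, although the labels do not say that it marks 1 animal; without that block 32 members were higher in septum, 32 higher in hypothalamus and 27 lower in frontal cortex. Alternatives covered scaling, floor, probe set choice, dim probe sets, regions, the beta-actin ratio and leaving out replicates.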

Additional observations from a re-analysis of the deposited data

Results flagged for a closer look

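Of 117 groups of 4 to 10 values examined, 5 held a highest or lowest value set far apart from the others, and chance alone gives about 1 in 20. In amygdala, the 4 pADX arrays included 1 with a median over the 38 bright ribosomal protein genes of 11.28, below the other arrays (11.48 to 11.51). The PM means of 5 regions held 1 with a median of 11.47, below the next at 11.50. Rpl22 at AM had a highest value of 10.28, above the next at 10.14. Rpl3l, at the floor in all other values, was at 4.01 in 1 Sham PM value, which was set apart both among the 4 Sham and among the 6 PM values.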

How the results depend on the processing

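With deposited values in place of normalised ones, members called rose from 0 to 42 for ADX against Sham and to 14 for ADX against pADX, and the medians over the 50 genes moved to -0.28 for ADX against Sham, -0.11 for pADX against Sham, -0.16 for ADX against pADX and 0.054 for PM against AM; members higher in hypothalamus and lower in frontal cortex both came to 0, and 12 were lower in frontal cortex with the 3 regions of 1 scale alone. Under the same setting these differences changed sign: ADX against Sham, Rpl13a -0.30, Rpl19 -0.28, Rpl22 -0.17, Rpl34 -0.25, Rplp0 -0.28, Rps16 -0.23, Rps28 -0.22 and Rps29 -0.26; hypothalamus against the others, Rpl12 -0.10, Rpl14 -0.17, Rpl18 -0.17, Rpl22 -0.20, Rpl24 -0.17, Rpl41 -0.13, Rplp0 -0.21, Rps28 -0.15, Rps6 -0.043 and Rpsa -0.15; frontal cortex against the others, Rpl13a 0.058, Rpl21 0.088, Rpl24 0.16, Rpl27 0.15, Rps24 0.15 and Rpsa 0.20; and Rpl37-ps2 in septum, 0.056, also 0.13 with the 3 regions alone. In frontal cortex Rps28 (-0.0043, adjusted p = 1), Rps27l (-0.17, 0.403) and Rpl39 (-0.10, 0.598) lost their calls there. With a floor of 32 Rpl28 in frontal cortex came to -0.0031. The scale of the arrays differs between groups by the values given above. Averaging septum and amygdala alone gave a median of 0.040 for ADX against Sham. Counting the 36 probe sets of several symbols too gave 78 genes and probe sets differing among regions, 57 higher in hypothalamus, 58 higher in septum and 42 lower in frontal cortex. Treatment by region came to 1 (Rpl21) with dim probe sets left out and to 1 (Rpl3l) without pADX PM replicate 1; time by region came to 2 (Rplp0 and Rpsa) without Sham PM replicate 1.

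Leaving out 1 replicate at a time gave 0 members called in each of the 7 comparisons of treatment and time across or within treatments, with medians of 0.0069 to 0.020 for ADX against Sham, 0.00047 to 0.010 for pADX against Sham, 0.00014 to 0.014 for ADX against pADX and 0.019 to 0.031 for PM against AM. It gave 42 to 45 members differing among regions, 31 to 34 higher in hypothalamus, 29 to 33 higher in septum, 22 to 28 lower in frontal cortex, 0 to 1 for treatment by region and 0 to 2 for time by region. Rps4y2 in frontal cortex lost its call without any of 7 of the 12 combinations, and Rpl39 among regions without Sham PM replicate 1 (adjusted p = 0.0676) or 2 (0.0563). With a replicate block 0 members were called in all 7 comparisons and the medians were unchanged (0.016 for ADX against Sham). The other settings kept each count within 1.5 times. Signals near the floor limit the 12 dim genes.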
